A study of Arabidopsis thaliana with 24 samples.

Results

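The transcripts described here encode proteins of the cytosolic ribosome of Arabidopsis thaliana and were chosen as a list of 49 nuclear loci, matched to the transcript identifiers by locus code. Of these, 48 were among the 8956 loci with DMS reactivity statistics, 29 for proteins of the large (60S) subunit and 19 for proteins of the small (40S) subunit. AT2G40010, a listed RPP0 locus, was not analysed here. The 48 loci belong to 32 protein families, of which 13 had 2 or more loci on the list. They are a part of the cytosolic ribosomal protein genes, and 158 others measured in the same plants are given for comparison.

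The cytosolic ribosome joins a small subunit, which binds the mRNA and checks the codon, to a large subunit, which forms the peptide bond. In plants each ribosomal protein is encoded by a small family of genes whose products can stand in for one another. Their mRNAs are abundant, short and heavily used in growing tissue, and in plants their translation responds to energy, light and stress. Dimethyl sulfate (DMS) enters living tissue and methylates the base-pairing face of unpaired adenines and cytosines. Structure-seq2 reads these methyl groups as stops of reverse transcription, so that a high reactivity marks a base that was unpaired and reachable in the plant.

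All plants were of accession Col-0, labelled as 24 days old, grown in hydroponic solution and either kept in it or given 100 mM NaCl for 48 h. Shoots and roots, each pooled from about 40 plants per library, were incubated with 0.75% DMS for 5 min or in buffer alone. Every condition (shoot or root, control or salt) was covered by 3 DMS-treated replicates and 3 untreated ones, and the deposited values combine them into 1 value per transcript for each of the 4 conditions. By its title, the study concerns salt responses of RNA structure that are specific to a tissue.

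The measures were the mean DMS reactivity per base of a transcript, its standard deviation between bases, its highest single reactivity and its Gini index, which is 0 for reactivity spread evenly and 1 for reactivity held by 1 base. No spread between replicates could be computed, read depth is unknown, and no difference below was tested. The table gives reactivities and no expression levels, so the labelled tissues were not checked against marker genes. The sources used here do not say how reactivities were scaled, and across all loci in control shoots mean and Gini index were nearly exchangeable (Spearman's rho -0.993). A locus is represented by its lowest-numbered isoform in the table, "all loci" includes the 48, and 4 values in a row are always in the order control shoot, salt shoot, control root, salt root. Ribosomal protein genes of 1 family have similar sequences and can share reads, so single values of such genes are uncertain to that extent.

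Ribosomal protein transcripts had high and evenly spread reactivity. Their median mean reactivity was 0.352 in control shoots, 0.348 in salt shoots, 0.242 in control roots and 0.274 in salt roots. Over all loci the medians were 0.273, 0.266, 0.198 and 0.210. The median ribosomal protein transcript thus stood above 93.3% of all loci in control shoots, 89.9% in salt shoots, 79.3% in control roots and 83.8% in salt roots. The mean was above the median of all loci, as by definition in 50% of them, in 45, 45, 42 and 45 of the 48. It was above in every condition in 42 of the 48, a count for which no share of all loci was computed. The spread among them was narrow in shoots, with a coefficient of variation of 11.6% in controls against 16.0% over all loci. In control roots it was 14.7% against 33.5%. High levels and a narrow spread were not particular to the 48. In control shoots the median was 0.331 over the 158 other cytosolic ribosomal protein loci and 0.329 over 33 translation factors. It was 0.340 over 7 ribosome biogenesis factors and 0.373 over 30 nuclear genes of plastid ribosomal proteins. The coefficients of variation of these groups were 12.8%, 10.7%, 13.1% and 5.67%, in the same order.

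**Figure D1:**
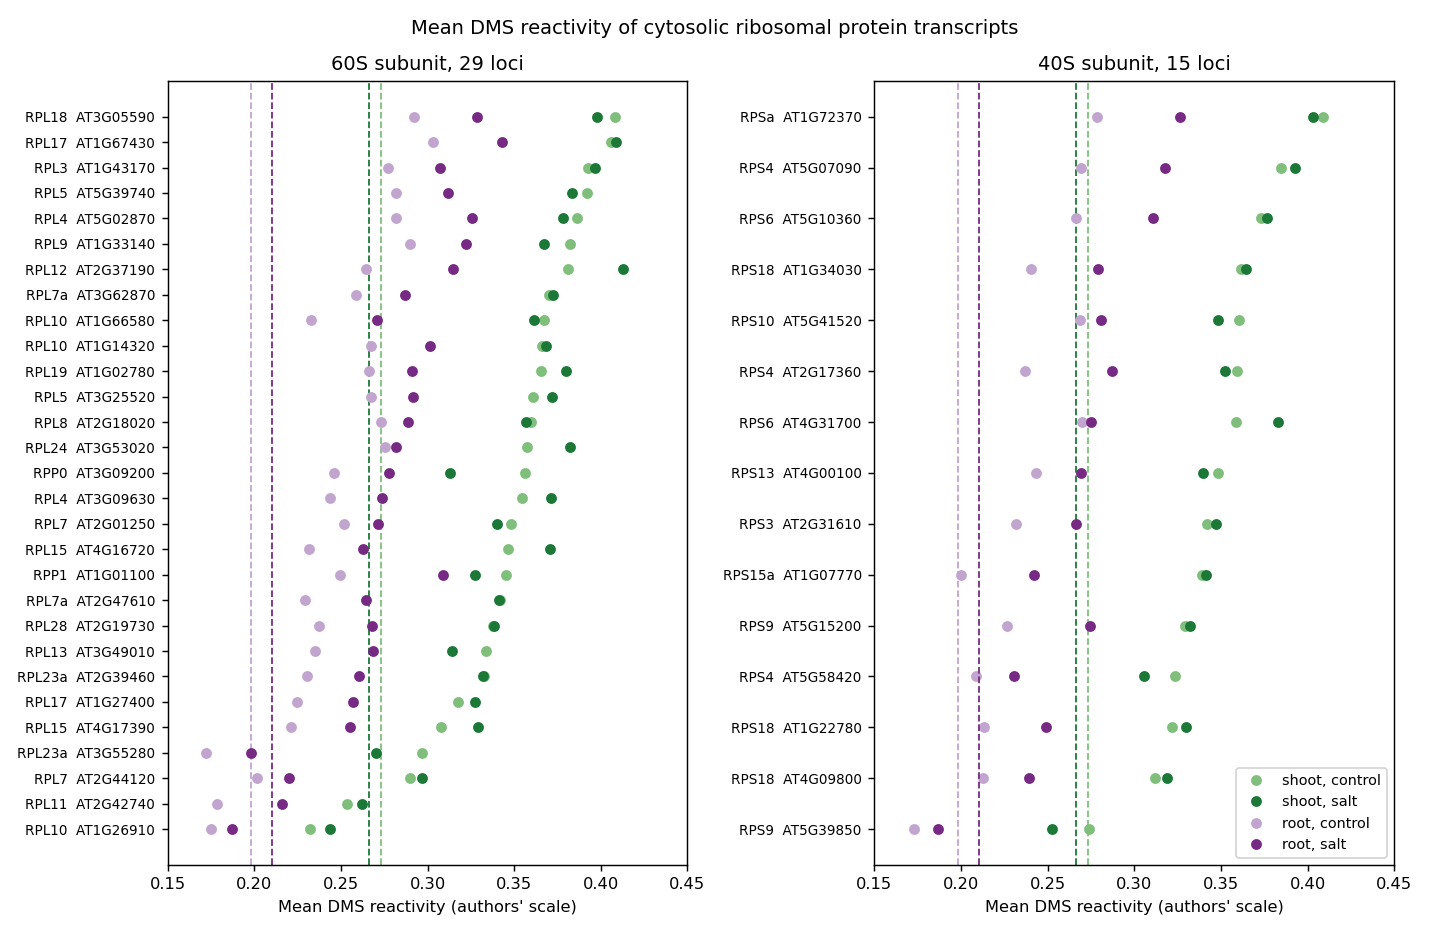
Mean DMS reactivity (horizontal axis, the authors' scale) of 44 of the 48 loci in the 4 conditions, with 60S loci on the left and 40S loci on the right, ordered by the value in control shoots. Each point is 1 deposited value and dashed lines are medians of all loci; root points lie left of the shoot points of the same condition at every locus, and RPL10B (AT1G26910), at 0.232 in control shoots, is the lowest of the left panel.

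The peptidyl transferase centre of the large subunit is surrounded by the proteins of the RPL3, RPL8 and RPL10 families. The RPL3 locus AT1G43170 (RP1) read 0.393, 0.396, 0.277 and 0.307. The RPL8 locus AT2G18020 (EMB2296) read 0.360, 0.357, 0.273 and 0.289. RPL10 proteins join the subunit late in its assembly, and SAC52 (AT1G14320), known from a suppressor of a thermospermine synthase mutant, read 0.366, 0.368, 0.267 and 0.301. Among its paralogues, SAG24 (AT1G66580), named as a senescence-associated gene, read 0.367, 0.361, 0.233 and 0.271. The third gene of the family, RPL10B (AT1G26910), read 0.232, 0.243, 0.175 and 0.187. RPL10B was therefore the lowest of the 48 in both shoot conditions, while its 2 paralogues lay above the median of the 48 in control shoots.

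Several large subunit proteins line the tunnel through which the new peptide leaves. In the RPL4 family AT3G09630 read 0.355, 0.371, 0.244 and 0.274. Its paralogue AT5G02870 read 0.386, 0.378, 0.282 and 0.325. In the RPL17 family AT1G27400 read 0.318, 0.328, 0.225 and 0.257. AT1G67430, the other RPL17 gene, read 0.406, 0.409, 0.303 and 0.343, among the 3 highest of the 48 in salt shoots and in both root conditions. RPL23a proteins sit at the tunnel mouth, where the signal recognition particle docks, and RPL23AA (AT2G39460) read 0.333, 0.332, 0.230 and 0.260. RPL23AB (AT3G55280) read 0.297, 0.270, 0.172 and 0.198. It was the lowest of the 48 in control roots.

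The 5S rRNA is held by RPL5 and RPL11 proteins. ATL5 (AT3G25520) read 0.361, 0.372, 0.267 and 0.291, and RPL5B (AT5G39740) read 0.392, 0.384, 0.282 and 0.312. RPL16A (AT2G42740), a gene of the RPL11 family, read 0.254, 0.262, 0.179 and 0.216. The 2 RPL5 loci were alike and RPL16A was among the 3 lowest of the 48 in both shoot conditions. The stalk that recruits elongation factors is built on RPP0 with RPP1 and its relatives, next to RPL12. The RPP0 locus AT3G09200 read 0.356, 0.313, 0.246 and 0.278. For RPP1 the locus AT1G01100 read 0.345, 0.327, 0.250 and 0.309. For RPL12 the locus AT2G37190 read 0.381, 0.413, 0.264 and 0.315. The listed RPP0 and RPP1 loci had their lower shoot value with salt, and the listed RPL12 locus its higher one. Outside the 48, the RPL12 loci AT3G53430 and AT5G60670 had shoot log2 ratios, salt over control, of -0.12 and 0.006. The RPP0 locus AT3G11250 had -0.04, and the RPP1 loci AT4G00810 and AT5G47700 had -0.11 and -0.12. The higher value of RPL12 with salt was thus not shared by its family.

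The remaining 60S loci encode other proteins of the large subunit. In the RPL7 family AT2G01250 read 0.348, 0.340, 0.252 and 0.272. AT2G44120 of the same family read 0.29, 0.297, 0.202 and 0.220. These listed RPL7 genes thus differed more from each other than either did between control and salt. This did not extend to the whole family. Among the other cytosolic ribosomal protein loci, the RPL7 loci AT1G80750 and AT3G13580 had root log2 ratios, salt over control, of 0.099 and 0.359. The ratio of AT3G13580 exceeded the largest log2 gap between the listed genes, 0.320 in control roots. In the RPL7a family AT3G62870 read 0.370, 0.373, 0.259 and 0.287. AT2G47610 read 0.342, 0.341, 0.229 and 0.264. Among RPL15 genes AT4G16720 read 0.347, 0.370, 0.231 and 0.263. AT4G17390, the other RPL15 gene, read 0.308, 0.329, 0.221 and 0.255, and both had their higher shoot value with salt. STV1 (AT3G53020), the RPL24 gene SHORT VALVE1, is known for its part in reinitiation of translation after upstream reading frames and in gynoecium patterning. It read 0.357, 0.382, 0.276 and 0.282. PGY2 (AT1G33140), an RPL9 gene found through leaf patterning mutants, read 0.382, 0.367, 0.29 and 0.322. RPL18 (AT3G05590) was the highest 60S locus in control shoots, at 0.408, with 0.398, 0.292 and 0.329 in the other conditions. The RPL28 locus AT2G19730 read 0.338, 0.338, 0.237 and 0.268, while emb2386 (AT1G02780, RPL19) and BBC1 (AT3G49010, RPL13) had control shoot values of 0.366 and 0.334.

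In the small subunit the mRNA enters past RPS3 and RPS9 proteins. The RPS3 locus AT2G31610 read 0.342, 0.347, 0.232 and 0.266. In the RPS9 family AT5G15200 read 0.329, 0.332, 0.226 and 0.274. Its paralogue AT5G39850 read 0.274, 0.253, 0.173 and 0.187, and was the lowest of all 48 in salt roots. With isoform 1 of AT5G15200 the 2 RPS9 genes thus lay apart in every condition. Isoform 2 of AT5G15200 read 0.237, 0.238, 0.160 and 0.187, not above AT5G39850 in any condition, so the gap depends on the isoform taken. The RPS3 locus was at the 40S median of control shoots.

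RPS6 is the ribosomal protein phosphorylated downstream of the TOR kinase. RPS6 (AT4G31700) read 0.359, 0.383, 0.270 and 0.275. EMB3010 (AT5G10360), the other RPS6 gene, read 0.373, 0.377, 0.266 and 0.311. The pair was nearly level in both controls, and the order of the 2 genes differed between the tissues with salt. RPS18 proteins lie in the head of the subunit, where PFL (AT1G22780), named for the pointed first leaf of its mutant, read 0.322, 0.330, 0.213 and 0.249. AT1G34030 of that family read 0.362, 0.364, 0.241 and 0.279. RPS18C (AT4G09800) read 0.312, 0.319, 0.213 and 0.239. AT1G34030 was the highest and RPS18C the lowest of the 3 RPS18 genes in all 4 conditions.

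Of the 3 RPS4 genes, AT2G17360 read 0.359, 0.353, 0.237 and 0.287. AT5G07090 read 0.384, 0.393, 0.269 and 0.318. AT5G58420 read 0.324, 0.305, 0.209 and 0.230. All conditions placed AT5G07090 highest and AT5G58420 lowest in this family. P40 (AT1G72370), of the RPSa family, whose protein lies near the mRNA exit, read 0.409, 0.403, 0.278 and 0.326. RPS13A (AT4G00100), RPS15A (AT1G07770) and RPS10B (AT5G41520) had control shoot values of 0.349, 0.339 and 0.361.

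Reactivity was spread more evenly along ribosomal protein transcripts than along most others. Their median Gini index was 0.555 in control shoots, 0.591 in salt shoots, 0.542 in control roots and 0.543 in salt roots. Over all loci it was 0.679, 0.690, 0.678 and 0.687. The Gini index was below the median of all loci, as by definition in 50% of them, in 46, 46, 47 and 48 of the 48. All 4 values were below it in 46 of the 48, a count for which no share of all loci was computed. Other lists had low medians in control shoots too, at 0.587 over other cytosolic ribosomal protein loci and 0.592 over translation factors. The medians there were 0.569 over ribosome biogenesis factors and 0.525 over plastid ribosomal protein genes. In control roots these 4 lists had 0.569, 0.575, 0.541 and 0.712. The lowest Gini indices were those of P40 in control shoots and salt roots (0.467 and 0.470) and of RPL18 in salt shoots and control roots (0.514 and 0.464). RPL10B read 0.748, 0.788, 0.682 and 0.671 and RPL16A read 0.712, 0.719, 0.654 and 0.675, so the 2 loci with the lowest means in control shoots also had the most uneven profiles. Across the 48 loci mean and Gini index ran in opposite directions in each condition, with Pearson's r from -0.989 in control shoots to -0.857 in control roots. Both measures come from the same libraries and the same bases, and in control shoots the relation was as tight over all loci. Elsewhere it was weaker over all loci, with r of -0.77 in salt shoots, -0.05 in control roots and -0.15 in salt roots.

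The highest single reactivity of these transcripts was modest. Its median was 1.62, 1.70, 1.11 and 1.252 over the 48, against 1.75, 1.78, 1.28 and 1.39 over all loci. The largest was 2.99, in RPL10B in salt shoots, and none of the 48 reached 7, the highest value in the table, which 27 loci reached in at least 1 condition. The standard deviation between bases had a median of 0.358, 0.384, 0.240 and 0.274 over the 48 and 0.369, 0.371, 0.264 and 0.286 over all loci.

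In shoots, mean reactivity of ribosomal protein transcripts differed little between salt and control. The RPL12 locus AT2G37190 went from 0.381 to 0.413, a log2 ratio of 0.12. The RPL15 loci and STV1 had log2 ratios of 0.10. At the other end the RPP0 locus AT3G09200 went from 0.356 to 0.313 (log2 ratio -0.19), RPL23AB from 0.297 to 0.270 (-0.14) and the RPS9 locus AT5G39850 from 0.274 to 0.253 (-0.11). With salt, 29 of 48 loci read higher, where 37.3% of all loci did. A log2 ratio of at least 0.32 in either direction was counted as large, and none of the 48 had one, against 2.7% of all loci. None was higher by at least 1.1-fold, against 6.95% of all loci, and 1, the RPP0 locus, was lower by at least 1.1-fold, against 17.8%. The median log2 ratio was 0.011 over the 48 and -0.035 over all loci. Dividing each mean by the transcript's highest reactivity turned the median of the 48 to -0.021.

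Among the 1107 loci outside the lists of cytosolic ribosomal proteins whose mean over the 4 conditions lay between 0.280 and 0.326, the middle range of the 48, the median shoot log2 ratio was 0.017. The gap between the ribosomal protein transcripts and all loci was not seen against these loci of like mean reactivity. They were chosen by the mean over all 4 conditions and so were not matched within a tissue. Their median mean reactivity was 0.324 in control shoots and 0.257 in control roots, against 0.352 and 0.242 over the 48.

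In roots, every one of the 48 loci read higher with salt, by small amounts. The RPP1 locus AT1G01100 had the largest log2 ratio, 0.31, from 0.250 to 0.309. RPS15A went from 0.200 to 0.242, a log2 ratio of 0.28. The smallest ratios were those of RPS6 and STV1, both 0.03, and of RPS10B, which went from 0.268 to 0.281 (0.07). A higher root value with salt was common, as 80.1% of all loci had one. The 48 exceeded that background more clearly in size, as 38 were higher by at least 1.1-fold, against 31.5% of all loci. None was lower by 1.1-fold, against 3.76%, and none had a log2 ratio of 0.32 or more in either direction, against 3.57%. Their median log2 ratio was 0.18 (1.13-fold), against 0.088 over all loci and 0.10 over the loci of like mean reactivity. Relative to the median of all loci the shift of the 48 was 0.092, and with each mean divided by the transcript's highest reactivity the median was 0.0041.

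**Figure D2:**
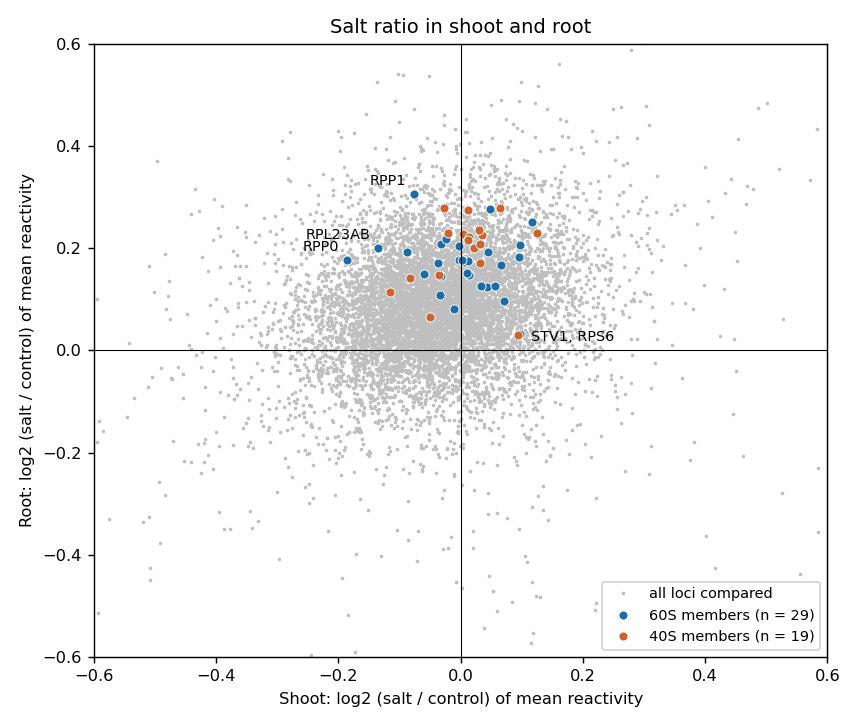
Log2 ratio of mean reactivity, salt over control, in shoots (horizontal axis) and roots (vertical axis); grey points are all loci compared within the axis limits, blue points 60S and orange points 40S loci. All 48 coloured points lie above 0 on the root axis and between -0.19 and 0.12 on the shoot axis, with RPP1 and RPP0 to the upper left and RPS6 and STV1, at 0.03, lowest on the root axis.

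The salt ratio was larger in root than in shoot for 46 of the 48 loci, a pattern that 82% of all loci shared. Of the 48, 29 read higher with salt in both tissues, against 31.7% of all loci, and 19 read lower in shoots and higher in roots, against 48.4%. As all 48 were higher in roots, this split repeats the shoot counts. The tissue difference, taken as root minus shoot on the log2 scale, had a median of 0.18 over the 48, 0.12 over all loci and 0.086 over the loci of like mean reactivity. It was at least 1.1-fold upward in 34 of the 48, against 45.8% of all loci, and at least 1.1-fold downward in none, against 4.83%. A difference of at least 0.32 upward was found in 3 of the 48, against 7.84% of all loci, so differences of this size were not more frequent among the 48. These were RPP1 at 0.38, RPP0 at 0.36 and RPL23AB at 0.34. Centring the ratios on all loci and adding a pseudocount of 0.1 each took this count to 0. STV1 and RPS6 had differences of -0.06 each and RPL10B had 0.03, the lowest of the 48. Across the 48 the shoot and root salt ratios, from separate libraries put on the authors' scale, showed almost no relation (Pearson's r -0.01, Spearman's rho 0.08). Over all loci the relation was weak too (Pearson's r 0.21, Spearman's rho 0.20).

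The evenness of reactivity differed with salt mainly in shoots. In salt shoots the Gini index was higher than in control shoots in 47 of the 48 loci, against 73.4% of all loci. A higher value was as frequent in the other lists, in 147 of 158 other cytosolic ribosomal protein loci, 31 of 33 translation factors, 7 of 7 ribosome biogenesis factors and 30 of 30 nuclear genes of plastid ribosomal proteins. The median change was 0.0382 over the plastid ribosomal protein genes, and it was 0.0299 over the 48, 0.0130 over all loci and 0.0212 over the loci of like mean reactivity. The RPS4 locus AT5G07090 had the largest, from 0.514 to 0.582, followed by SAG24, from 0.527 to 0.586. The RPS9 locus AT5G39850 was the exception, going from 0.674 to 0.651. In roots the Gini index was higher with salt in 24 of the 48, against 65.9% of all loci, with a median change of 0.0013 over the 48 and 0.0081 over all loci. The other lists did not share the low root count of the 48. A higher root value was found in 101 of 158 other cytosolic ribosomal protein loci and 22 of 33 translation factors. It was found in 4 of 7 ribosome biogenesis factors, 20 of 30 plastid ribosomal protein genes and 63.2% of the loci of like mean reactivity. Among the 48 in roots, AT5G39850 had the largest increase, from 0.573 to 0.612, and the RPS18 locus AT1G34030 the largest decrease, from 0.561 to 0.539. The root minus shoot difference of these changes was above 0 in 9 of the 48, against 43.2% of all loci. Low shares were found in the other lists too, with 28 of 158 other cytosolic ribosomal protein loci and 7 of 33 translation factors. It was above 0 in 0 of 7 ribosome biogenesis factors, 3 of 30 plastid ribosomal protein genes and 30.2% of the loci of like mean reactivity.

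**Figure D3:**
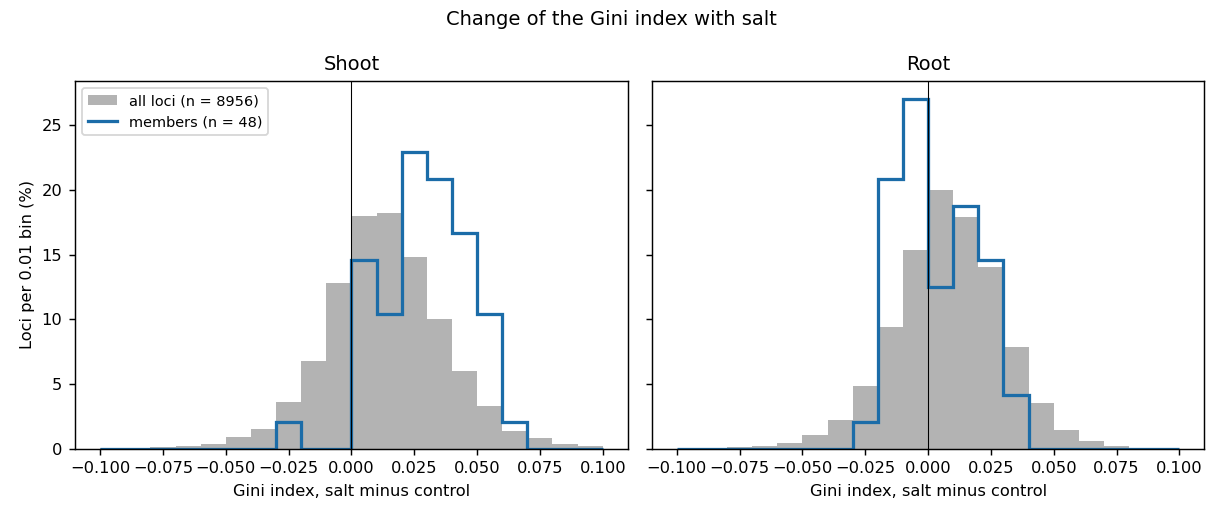
Distribution of the change of the Gini index with salt (salt minus control, horizontal axis) in shoots and roots, as the percentage of loci per bin; grey bars are all 8956 loci and the blue line the 48 ribosomal protein loci. In shoots 47 of the 48 lie above 0 and their median is 0.0299, while in roots 24 lie above 0 and 24 below.

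The standard deviation between bases was higher with salt in 41 of the 48 in shoots and in all 48 in roots, where 52.1% and 82.9% of all loci were higher. The highest single reactivity was higher with salt in 31 loci in shoots and 41 in roots, where 52.5% and 70.4% of all loci were higher.

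Roots and shoots differed in level at every ribosomal protein transcript. In controls the root value was lower than the shoot value in all 48, and 7.44% of all loci had a higher root value. It was lower by at least 0.32 on the log2 scale in all 48, against 73.8% of all loci, and in 1 of the 48 once ratios were centred on all loci. RPL23AB (0.297 in shoot, 0.172 in root) and RPS15A (0.339 and 0.200) had the lowest log2 ratios, -0.78 and -0.76. STV1 (0.357 and 0.276) had the least difference, -0.37. The median was -0.51 over the 48, -0.45 over all loci and -0.35 over the loci of like mean reactivity, which were not matched within a tissue. Since most loci read lower in roots, the 48 lay only 0.060 below the median of all loci. Dividing each mean by the highest reactivity turned the median of the 48 to 0.076, so the direction between tissues depends on the scale.

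With salt, none of the 48 read higher in root than in shoot, against 9.1% of all loci. A root value lower by at least 0.32 on the log2 scale was found in 30 of the 48, against 49.7% of all loci. That count was 7 with a pseudocount of 0.1 and 0 after centring on all loci. The median log2 ratio was -0.35 over the 48 and -0.32 over all loci, a shift of -0.031 between them, and it was 0.12 for means divided by the highest reactivity. The least differences were those of RPP1 (-0.09) and RPP0 (-0.17) and the largest those of RPS15A and the RPL15 locus AT4G16720 (both -0.50). The Gini index was higher in root than in shoot in 10 of the 48 without salt, against 42% of all loci, and in none with salt, against 38.4%. Its median root minus shoot difference was -0.0192 without salt and -0.0430 with salt. Related lists were similar, with a higher root Gini index without salt in 30 of the 158 other cytosolic ribosomal protein loci. It was higher without salt in 5 of 33 translation factors and 1 of 7 ribosome biogenesis factors. With salt these 3 counts were 5, 1 and 0. All 30 nuclear genes of plastid ribosomal proteins had the higher Gini index in root, without and with salt.

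**Figure D4:**
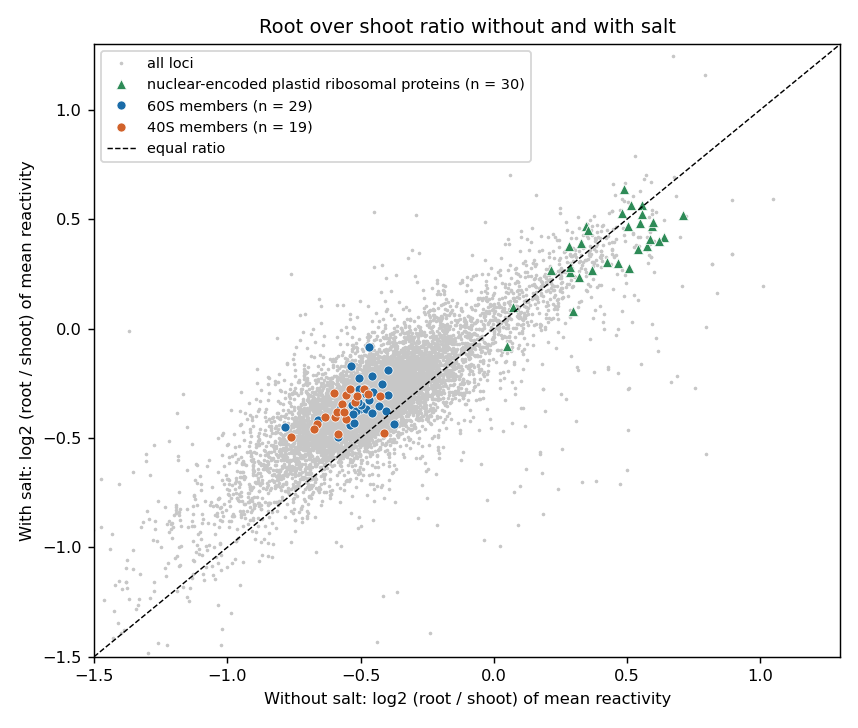
Log2 ratio of mean reactivity, root over shoot, without salt (horizontal axis) and with salt (vertical axis), within the axis limits; grey points are all loci, circles the 60S and 40S loci, green triangles 30 nuclear genes of plastid ribosomal proteins, and the dashed line marks equal ratios. All 48 circles lie below 0 on both axes, whereas all 30 triangles lie above 0 on the horizontal axis. Ratios are on the authors' scale, and the side on which triangles lie was not tested with means divided by the highest reactivity.

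Large and small subunit transcripts overlapped in level. The 60S median was 0.356, 0.361, 0.250 and 0.278 and the 40S median 0.342, 0.341, 0.232 and 0.269. In control shoots the interquartile range of the 60S loci ran from 0.334 to 0.370 and that of the 40S loci from 0.318 to 0.361, so the groups overlapped. The root salt ratio had a median of 0.18 over 60S loci, with a range from 0.03 to 0.31. Over 40S loci the median was 0.22, with a range from 0.03 to 0.28. Among the other cytosolic ribosomal protein loci, 91 of the 60S and 67 of the 40S subunit, these medians were 0.18 and 0.19, so the gap between subunits was smaller there. In shoots the salt ratio had a median of 0.0076 over 60S and 0.011 over 40S loci. Root over shoot without salt had a median of -0.50 over 60S and -0.56 over 40S loci. The other cytosolic ribosomal protein loci had nearly the same gap there, with -0.50 and -0.55.

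Paralogues differed in level about as much as ribosomal protein loci of different families did. Over the 19 pairs within families the median absolute log2 ratio of mean reactivity was 0.17, 0.17, 0.20 and 0.22. Over the 1109 pairs of the 48 loci from different families it was 0.15, 0.16, 0.21 and 0.20. The order of paralogues was mostly kept from condition to condition, with the same gene higher in all 4 in 17 of the 19 pairs (89.5%). Pairs of different families did so in 867 of 1109 cases (78.2%), and the sizes of paralogue differences moved between conditions. Among these 19 pairs, formed only from the 48, the largest differences were within RPL10. Paralogues outside the 48 were not paired, and some lay farther apart. In control shoots RPSAb (AT3G04770), of the RPSa family, read 0.233, against 0.409 for P40. SAC52 was above RPL10B by 1.579-fold in control shoots, 1.51-fold in salt shoots, 1.53-fold in control roots and 1.61-fold in salt roots. In control shoots SAG24 was above RPL10B by slightly more, 1.584-fold. In RPS9, isoform 1 of AT5G15200 was above AT5G39850 by 1.20-fold, 1.31-fold, 1.31-fold and 1.47-fold. Isoform 2 of AT5G15200 was not above AT5G39850 in any condition. The RPL17 pair differed by 0.35, 0.32, 0.43 and 0.42 on the log2 scale. The pairs that changed order were SAC52 with SAG24 and the 2 RPS6 genes.

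**Figure D5:**
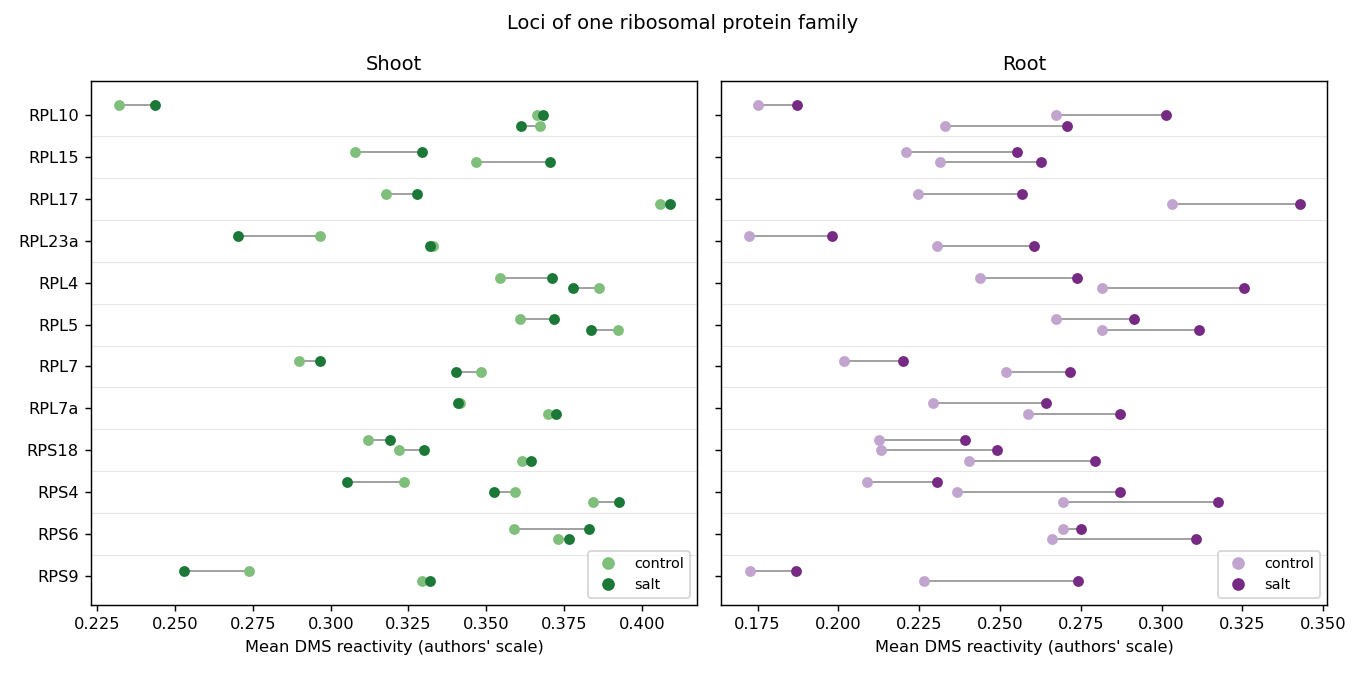
Mean DMS reactivity (horizontal axis, the authors' scale) of 27 loci in 12 families with 2 or more loci, in shoots and roots; each row joins the control and salt value of 1 locus, and loci of a family are stacked in the order of their control shoot value. The points of RPL10B stand at 0.232 and 0.243 in shoots, apart from its 2 paralogues, and RPS6 has the shortest line in roots among the 40S loci shown.

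The salt response of paralogues differed by a median absolute log2 value of 0.063 in shoots and 0.044 in roots, against 0.059 and 0.060 for pairs of different families. The 2 RPS6 genes had the widest gap in roots. EMB3010 had a root salt ratio of 0.22 and RPS6 one of 0.03. Their tissue differences, 0.21 and -0.06, were accordingly the farthest apart of the 19 pairs.

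For 25 of the 48 loci more than 1 isoform was in the table, with up to 9 for the RPL3 locus AT1G43170, whose isoforms ranged from 0.360 to 0.396 in control shoots. Most isoforms of a locus share most of their sequence and reads. Isoforms lay farthest apart in RPL23AA, where isoform 1 read 0.333 and isoform 2 read 0.220 in control shoots (1.51-fold) and 0.260 and 0.169 in salt roots (1.54-fold). In the RPS9 locus AT5G15200 isoform 1 read 0.329 and isoform 2 read 0.237 in control shoots. Over the 3 isoforms of RPL23AB the shoot salt ratio ran from -0.23 to -0.08. Over the 4 isoforms of the RPP1 locus AT1G01100 the root salt ratio ran from 0.27 to 0.35.

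The other 158 cytosolic ribosomal protein loci in the table, of 169 listed, gave nearly the same medians as the 48. Their median log2 ratio was 0.014 for salt in shoots, 0.18 for salt in roots and -0.53 for root over shoot without salt. Of these, 154 read higher in salt roots. Their spread was wider, with a standard deviation of the root salt ratio of 0.13 against 0.06 over the 48, and 0.088 without the locus AT2G47570. Translation factors, 33 of 34 listed, had medians of -0.0017 for salt in shoots, 0.13 for salt in roots and -0.54 for root over shoot without salt. The 7 ribosome biogenesis factors had medians of -0.0088, 0.097 and -0.40 for the same comparisons. Nuclear genes of plastid ribosomal proteins, 30 of 30 listed, differed in direction between tissues. Their root over shoot median without salt was 0.48, and all 30 were higher in roots, where none of the 48 was. PSRP2 (AT3G52150) had 0.71, the highest of these. The highest single reactivity of the 30 genes had a median of 3.47 in roots without salt, against 1.65 in shoots. Means divided by the highest reactivity were not compared for these genes, so whether their direction between tissues depends on the scale was not tested.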

How the data were processed

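DMS reactivity statistics of 12978 transcripts in 4 conditions were analysed. Per the file headers, the authors deposited the maximum, mean and standard deviation as reactivity scores and the Gini index as a fraction. Structure-seq2 libraries, 24 in all, were made in 3 replicates for each of 8 groups, and the deposited table holds 1 value per condition. The sources used here do not name an aligner, build, normalization or coverage filter, and coordinates are left out. Per the file headers nothing gives depth, so no counting interval could be given.

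One isoform per locus was kept (lowest number). Log2 ratios of mean reactivity used no pseudocount and loci whose mean over both conditions reached 0.1. All of the 48 passed. The tissue difference is the root minus the shoot log2 ratio. Calculations used Python 3.11.15 with pandas 2.3.3 and NumPy 2.4.6 and were tested on simulated data. Symbols came from the TAIR10.1 RefSeq table, which gave 26 of the 48 one. The other 22 are named by family and locus code, with families from the established ribosomal protein nomenclature. The members and lists were chosen with earlier results of these data known.

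Values of some loci are not reported here. Other loci named with full values are those in families with 2 or more loci and the 3 highest and 3 lowest by ratio, mean or Gini index, with at most the 2 highest and 2 lowest of each other list. Loci shown beyond these, mainly to cover each protein's role, were chosen after their values were seen. Alternatives were other isoforms, all isoforms, centred ratios, a pseudocount of 0.1, a minimum of 0 or 0.2, limits of 1.1-fold and 1.5-fold, a Gini limit of 0.7, 1 value per family, the mean over the maximum, and the standard deviation over the mean. Adding the other cytosolic ribosomal proteins, or leaving out the 2 stalk loci, was chosen after seeing the data.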

Additional observations from a re-analysis of the deposited data

Results flagged for a closer look

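The RPP0 locus AT3G09200, the base of the ribosomal stalk, drew attention because its salt ratio passed 1.1-fold in opposite directions in the 2 tissues. Its log2 ratio was -0.19 in shoots and 0.18 in roots, a tissue difference of 0.36. It was the 1 locus of the 48 with this pattern, which 307 of all loci (3.45%) had, among them 2 other cytosolic ribosomal protein loci and 1 translation factor. The difference was not tested, as each condition has 1 value. Of all loci, 95.2% had a lower tissue difference.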

How the results depend on the processing

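No paired analysis was possible because the deposited values combine the replicates of each condition. No replicate was left out, for the same reason. Medians and counts of the salt and tissue ratios kept their direction and size with the highest-numbered isoform, a minimum of 0.2 or none and a Gini limit of 0.7. The 60S minus 40S gaps in mean reactivity and its ratios kept their direction with 1 value per family. Read depth, replicate spread and the scale of reactivity limit every value, and the causes of the changes below were not tested.

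Taking the mean over the highest reactivity reversed the median log2 ratio of the 48 for salt in shoots (-0.021) and for root over shoot without salt (0.076) and with salt (0.12). The medians became 0.0041 for salt in roots and 0.061 for the tissue difference. Ratios centred on all loci had medians of 0.046 for salt in shoots, 0.092 in roots, -0.060 and -0.031 for root over shoot without and with salt, and 0.056 for the tissue difference. After centring, 8 and 18 of the 48 were above 0 for root over shoot without and with salt, and 1, 0 and 0 reached a log2 ratio of 0.32 for root over shoot without salt, with salt and the tissue difference. The 8 were ATL5 (0.022), RPL10B (0.049), PGY2 (0.056), EMB2296 (0.057), RPS6 (0.041), STV1 (0.079), RPS10B (0.028) and AT1G67430 (0.035).

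A pseudocount of 0.1 gave medians of 0.13 for salt in roots, -0.39 and -0.26 for root over shoot without and with salt, and 0.13 for the tissue difference, with 7 and 0 loci past 0.32 in the last 2. At 1.1-fold the counts were 1 for salt in shoots, 38 in roots, 47 for root over shoot with salt and 34 for the tissue difference. At 1.5-fold they were 10 and 0 for root over shoot without and with salt and 0 for the tissue difference. Over all 87 isoforms, 49, 87 and 84 were above 0 for salt in shoots, in roots and the tissue difference, and 1, 87, 52 and 8 passed 0.32 for salt in roots, root over shoot without and with salt, and the tissue difference. With the other cytosolic ribosomal proteins added (206 loci), 118, 202, 1 and 190 were above 0 for salt in shoots, in roots, root over shoot with salt and the tissue difference. In that set 8, 199, 127 and 15 passed 0.32 for salt in roots, root over shoot without and with salt, and the tissue difference. Without the 2 stalk loci 1 of 46 had a tissue difference past 0.32. The 60S minus 40S gap reversed for the Gini index in salt roots (0.00775) and, among the other cytosolic ribosomal proteins, for the tissue difference (0.010). With the highest-numbered isoform the paralogue medians fell to 0.16 in control and 0.13 in salt roots.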

Other observations

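Among the cytosolic ribosomal protein loci outside the 48, AT2G47570 of the RPL18 family stood apart, with a root salt log2 ratio of 1.32 and a root over shoot log2 ratio of -1.88 without salt. Its root means were 0.0593 in controls and 0.148 with salt, and their mean of 0.104 lay just above the minimum of 0.1. Its Gini index was 0.968, 0.970, 0.992 and 0.979 in control shoots, salt shoots, control roots and salt roots, so nearly all its reactivity was held by few bases. The next highest root salt ratio among these loci was 0.41, at AT2G36160. In translation factors ELF5A-1 (AT1G13950) and ELF5A-3 (AT1G69410), genes of the factor eIF5A, had the lowest root over shoot log2 ratios without salt, -0.94 and -0.74. ELF5A-3 also had the lowest root salt ratio of these factors, -0.11. FIB2 (AT4G25630), a fibrillarin of rRNA methylation, had the lowest root over shoot ratio of the 7 biogenesis factors, -0.76. The nuclear genes of plastid ribosomal proteins had a median salt ratio of 0.13 in shoots, with all 30 above 0, and 0.04 in roots, with 19 of 30 above 0. Their Gini index was higher in root than in shoot in all 30 without salt, by a median of 0.182.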
